A study of Mus musculus with 12 samples.

Results

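The genes described here are 40 genes of mitosis and of the G2 to M transition of the cell cycle, measured by RNA-seq in cultured mouse CD8 T cells. They were found by symbol among the 55450 genes of each deposited table, and all 40 had enough counts to be tested. The cells came from pmel-1 mice, a line with a transgenic T cell receptor for gp100, an antigen of melanoma, and carried the wildtype Ucp2 gene. All groups were stimulated in culture with the gp100 peptide at 1 µM or with antibodies to CD3 (2 µg/ml) and CD28 (1 µg/ml), followed by 4 days of expansion with 10 ng/ml of IL-2. Which stimulus was used here is not in the labels. There were 12 libraries, 3 in each of 4 groups. The controls received vehicle, which was culture medium, and the treated cells received genipin, N-acetylcysteine (NAC), or the 2 compounds together. Genipin comes from the gardenia fruit and serves as an inhibitor of Ucp2, a carrier of the inner mitochondrial membrane. NAC is a thiol antioxidant and a source of cysteine. The study asked what Ucp2 inhibition and NAC do to the transcriptome of these cells. The labels give neither the doses nor the time of exposure, and no group lacks the Ucp2 gene. They also do not say whether replicates came from separate mice or cultures, so all p-values rest on the spread among these libraries, which may be technical.

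Mitosis starts when Cdk1, bound to a B-type cyclin, is freed of its inhibitory phosphates by Cdc25 phosphatases and then works beside the Polo-like and Aurora kinases. Kinetochores, protein plates built on the centromere, grip the microtubules of the spindle, and a checkpoint that senses free kinetochores holds back the anaphase promoting complex until all chromosomes are attached. The complex then marks securin and cyclin B for destruction, separase cuts the cohesin that joins sister chromatids, and a contractile ring divides the cell. Transcripts of most of these genes build up in G2 and fall after division, and the MuvB complex with B-Myb and FoxM1 drives many of them through a promoter element called the CHR. Activated CD8 T cells in IL-2 divide rapidly, so these transcripts are abundant in such cultures.

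The libraries held 20838894 to 31098648 expected counts each, and the lowest count of any of the 40 genes in any library was 219. The T cell receptor and CD8 marker list (8 genes) was summed in TPM, the deposited level per transcript length. It reached 3661 to 3731 in vehicle libraries, 4134 to 4215 in genipin libraries, 4606 to 4693 in those of both compounds and 3908 to 3979 in those of NAC. Within it Cd8a had means of 186, 172, 277 and 368 TPM in the same order. Some defining markers of other blood cells were at or near 0: Siglech, S100a8 and Elane had no count in any library, and Ms4a1, Pax5, Csf1r, Adgre1 and Klra8 had at most 3. Other genes of the same lists were expressed, such as Cd68 with 246 to 2265 counts, Itgax with 156 to 852 and Kit with 345 to 7174, and several marker sums differed between groups. The B cell list (7 genes) summed to 32.6 to 33.2 TPM in vehicle libraries, 49.6 to 53.7 in genipin libraries, 126 to 129 in those of both compounds and 171 to 181 in those of NAC, mostly as Ighm. The NK cell list (6 genes) summed to 106 to 111, 254 to 277, 70.4 to 72.0 and 35.4 to 37.2 TPM in the same order, mostly as Fcer1g and Eomes. The macrophage and dendritic cell list (9 genes) summed to 40.9 to 45.6, 22.0 to 23.0, 83.8 to 94.8 and 70.7 to 72.05 TPM, mostly as Cd68, and the neutrophil and mast cell list (9 genes) to 21.1 to 23.5, 49.4 to 54.4, 77.1 to 83.3 and 19.5 to 20.8 TPM, mostly as Kit, Mcpt8 and Cpa3. The lists for CD4 T cells (3 genes) and erythroid cells (4 genes) reached at most 2.82 and 2.5 TPM. The part of these differences in the results below was not tested. Replicate 1 of genipin with NAC stood apart from replicates 2 and 3 of its group, with a chi-square per degree of freedom of 7.31 and 8.43, against 2.12 to 3.03 in the other pairs of replicates. For the 40 genes, counts called in a contrast that change without it are given with and without it. Counts of roles, patterns, overlaps between groups and further genes include it and were not recomputed.

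Nearly all of the 40 genes were higher with each compound alone than with vehicle, and with the compounds together they lay near the vehicle level. In the quasi-likelihood test of edgeR, adjusted by Benjamini-Hochberg over 13636 genes, a gene was called at an adjusted p under 0.05. With genipin against vehicle 38 of 40 rose and 1 fell, against 61.0% of all genes tested that were called, 29.9% higher and 31.0% lower. With NAC against vehicle 39 of 40 rose and none fell, against 59.7% of all genes that were called, 29.6% higher and 30.0% lower. The median log2 fold change of the 40 genes was 0.65 with genipin and 0.63 with NAC, while the median of all genes was -0.01 in each comparison. With both compounds against vehicle 6 rose, 15 fell and 19 were not called, with a median of -0.06 and a background of 57.4% of genes called, 28.5% higher and 28.9% lower. The comparisons with vehicle share the vehicle libraries, so their values are not independent.

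The sizes differed as much as the calls. A log2 change of at least 0.5 in either direction was reached by 31 of 40 genes with genipin, by 34 with NAC and by 0 with both compounds. The share of all genes that reached this size was not computed. Over all genes tested the SD of the log2 change was 0.76, 0.76 and 0.66 in the same order. The 19 genes not called with both compounds had log2 changes from -0.10 to 0.17 with standard errors (SE) of 0.04 to 0.09, and a missed threshold does not show that they were at the vehicle level. Without replicate 1 of genipin with NAC, 24 genes were called instead of 21, with 6 higher and 18 lower. Without normalization factors, 9 rose and 11 fell in place of 6 and 15, so the split between small rises and small falls depends on the scaling. The falls of Aurka, Bub1b, Incenp and Tpx2 were not called without these factors (adjusted p = 0.056, 0.0502, 0.0957 and 0.173), nor were the changes of Cdk1, Cenpf, Tpx2 and Espl1 with offsets for effective length (0.0677, 0.176, 0.214 and 0.25), by edgeR.

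**Figure D1:**
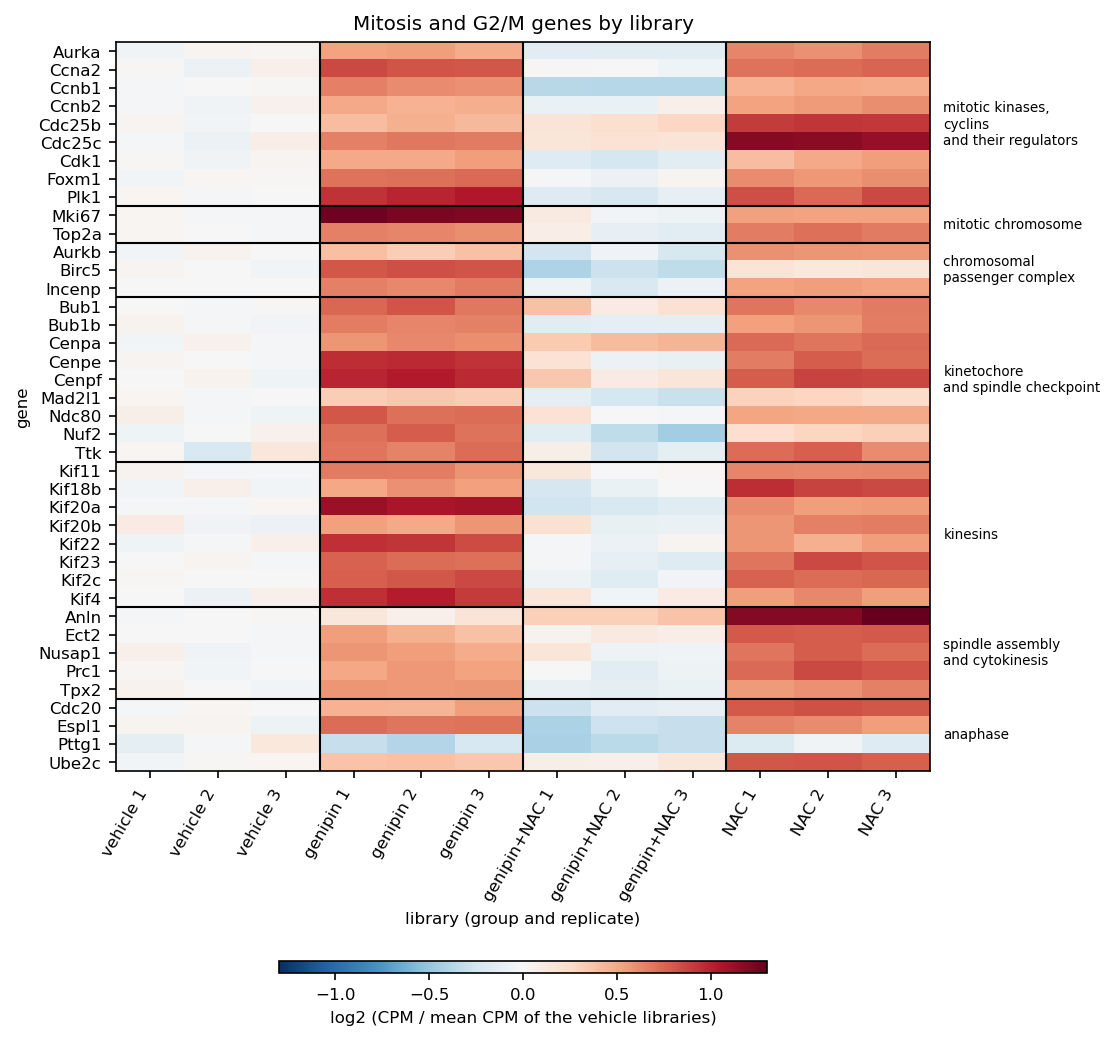
Each cell gives the log2 ratio of CPM, counts scaled to library size, in a library (columns, 3 per group) to the mean CPM of the vehicle libraries, for the 40 genes (rows, in blocks by role). The genipin and NAC columns are red for all genes but Pttg1, and pale where the rise was small, as for Anln with genipin and Birc5 with NAC. The columns of both compounds are pale or light blue for most genes.

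Set against either compound alone, the combination was lower for all genes but Anln and Pttg1, which fell only against NAC. With both compounds against genipin 38 of 40 fell and 1 rose, with a median of -0.68 (69.3% of all genes called, 34.3% lower and 35.0% higher). Against NAC all 40 fell, with a median of -0.71 (53.1% of all genes called, 26.5% lower). The interaction, which is the effect of genipin in the presence of NAC minus its effect in the absence of NAC, was below 0 for 39 of 40 genes with a median of -1.33 (51.4% of all genes called, 24.0% below 0). It was -1 or lower for 37 of the 39. The share of all genes at that size was not computed, and the SD of the interaction over all genes tested was 0.81. Together, 38 genes rose with each compound alone, a pattern that 8.73% of all genes shared, and the same 38 were lower with both compounds than with either, a pattern of 3.29% of all genes. The sign of their interaction, called below 0 for the same 38, follows from the rise with genipin and the fall against NAC. It is no further trait. Of all genes 7.06% had it with a rise under each compound, which is 963 of the 1190 genes that rose with each. Of the 38 genes, 19 were not called with both compounds against vehicle (2.49% of all genes had this with a rise under each compound). The 2 genes outside these 38 were Anln and Pttg1. In bulk RNA, a smaller share of cells in G2 and mitosis and a lower amount of each transcript per cell cannot be told apart.

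The libraries of a group lay close together. With genipin 39 genes lay wholly above the vehicle libraries and 1 wholly below (33.0% and 33.7% of all genes did so). With NAC 39 lay wholly above and 1 overlapped (32.7% of all genes lay above). With both compounds 16 overlapped the vehicle libraries, 8 lay above and 16 below (30.3% and 30.4% of all genes). With both compounds 38 lay wholly below the genipin libraries (35.1% of all genes) and all 40 wholly below the NAC libraries (28.4%). The deposited TPM of the 40 genes summed to 1573, 1524 and 1567 in the vehicle libraries, to 2575, 2584 and 2545 in those of genipin, to 1595, 1544 and 1536 in those of both compounds, and to 2638, 2682 and 2723 in those of NAC. The libraries of each single compound were thus all above those of vehicle and of the combination, which overlapped each other.

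**Figure D2:**
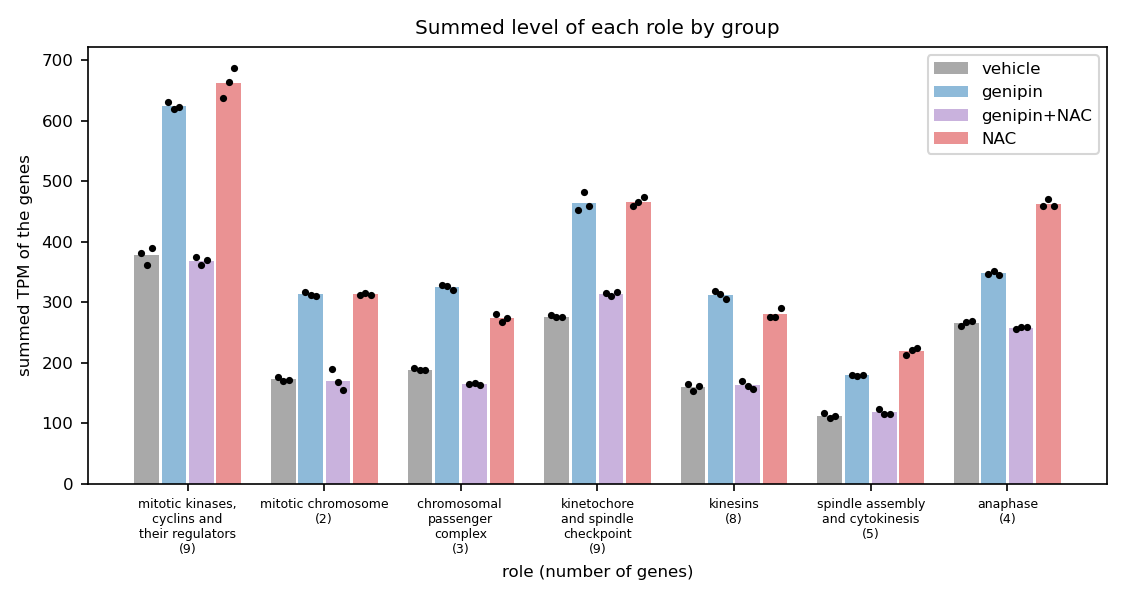
Bars give the mean of the summed TPM of the genes of each role in each group, and points the 3 libraries (vertical axis, TPM per library summed over the genes). In all 7 roles the genipin and NAC bars stand above those of vehicle and of genipin with NAC, and NAC is above genipin for the anaphase and spindle assembly genes and below it for the passenger complex and the kinesins.

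Because the 40 genes moved together, their promoters were read from RefSeq (GRCm38.p6), 250 bases before to 50 after each start. Of the 40 genes 33 matched. The CHR element was searched as TTTGAA or TTCGAA on both strands within 100 bases before to 50 after the start, and the CCAAT box as CCAAT on both strands over the whole 300 bases. A CHR match and a CCAAT match could share bases. A CHR element was found in 25 of 33 genes (75.8%), against 9.87% of 27025 genes, and a CCAAT box in 72.7% against 41.1%. Both stood in 22 of 33 (66.7%), against 3.93% of all genes. Of 23 replication and G1/S genes with a promoter, 69.6% had a CCAAT box and 8.7% a CHR element. The 8 genes without a CHR element were Pttg1, Birc5, Kif2c, Cenpe, Mad2l1, Nuf2, Ccnb1 and Nusap1, which says only that these letters are not in this window. The RefSeq starts of Kif2c, Kif4 and Pttg1 lie 3867, 328 and 270 bases inside the gene as GENCODE draws it, so these windows do not reach the GENCODE start. The window of Mad2l1, on the plus strand, ends at base 66535270, before its GENCODE start at base 66535390, so it does not reach that start either. All other starts lay at most 109 bases inside.

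The stretches below run from 150 bases before the start through the first 30 transcribed bases, 5′ to 3′ in the direction of the gene, with CHR elements and CCAAT boxes on either strand in capitals. The first 6 show CCAAT boxes together with a CHR element near the start in a kinase, a cyclin, a checkpoint kinase, a kinesin and 2 regulators of anaphase, and Birc5 is shown as a member with neither motif.
Cdk1 (chr10:69352883-69353062, minus strand): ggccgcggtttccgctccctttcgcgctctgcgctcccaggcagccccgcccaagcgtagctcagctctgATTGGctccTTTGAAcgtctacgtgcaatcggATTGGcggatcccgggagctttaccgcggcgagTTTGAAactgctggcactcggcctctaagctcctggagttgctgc
Ccnb2 (chr9:70421525-70421704, minus strand): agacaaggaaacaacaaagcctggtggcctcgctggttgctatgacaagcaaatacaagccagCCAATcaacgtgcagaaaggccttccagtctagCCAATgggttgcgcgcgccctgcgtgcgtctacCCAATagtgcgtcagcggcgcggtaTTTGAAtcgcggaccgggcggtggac
Ttk (chr9:83834539-83834718, plus strand): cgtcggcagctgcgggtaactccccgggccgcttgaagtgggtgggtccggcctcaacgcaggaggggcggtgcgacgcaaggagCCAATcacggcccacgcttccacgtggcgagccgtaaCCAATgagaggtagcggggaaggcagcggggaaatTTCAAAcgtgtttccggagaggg
Kif18b (chr11:102925095-102925274, minus strand): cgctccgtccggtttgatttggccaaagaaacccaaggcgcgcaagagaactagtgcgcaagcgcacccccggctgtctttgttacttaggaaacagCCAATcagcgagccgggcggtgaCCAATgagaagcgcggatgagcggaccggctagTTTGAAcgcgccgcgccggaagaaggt
Cdc20 (chr4:118437314-118437493, minus strand): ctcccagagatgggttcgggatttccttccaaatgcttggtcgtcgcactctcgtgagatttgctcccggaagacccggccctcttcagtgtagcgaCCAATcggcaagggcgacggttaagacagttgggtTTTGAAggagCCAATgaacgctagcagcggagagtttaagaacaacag
Ube2c (chr2:164769779-164769958, plus strand): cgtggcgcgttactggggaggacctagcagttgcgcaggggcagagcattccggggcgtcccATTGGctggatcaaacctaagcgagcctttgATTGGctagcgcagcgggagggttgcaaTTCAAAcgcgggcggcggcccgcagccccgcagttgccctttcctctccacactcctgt
Birc5 (chr11:117849087-117849266, plus strand): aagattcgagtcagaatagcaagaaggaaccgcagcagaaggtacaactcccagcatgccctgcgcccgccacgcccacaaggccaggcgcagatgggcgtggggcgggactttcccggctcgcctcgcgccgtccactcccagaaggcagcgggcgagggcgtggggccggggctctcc
In Ccnb2, Ttk and Kif18b the CHR element is the capitalised block closest to the 3′ end, and in Cdc20 it lies between the CCAAT boxes. The 25 genes with a CHR element had a median interaction of -1.37 and the 8 without it -1.32. The medians were 0.63 and 0.68 with genipin and 0.68 and 0.37 with NAC. These are descriptions of 2 sets of genes, and the difference between the sets was not tested. The windows of Pttg1, Mad2l1 and Kif2c among the 8, and of Kif4 among the 25, miss the GENCODE start. Their place in either set is thus uncertain, and their changes with NAC were -0.13, 0.27, 0.75 and 0.57. Kif2c has the letters TTCAAA at -103 from its RefSeq start, just outside the stretch searched.

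**Figure D3:**
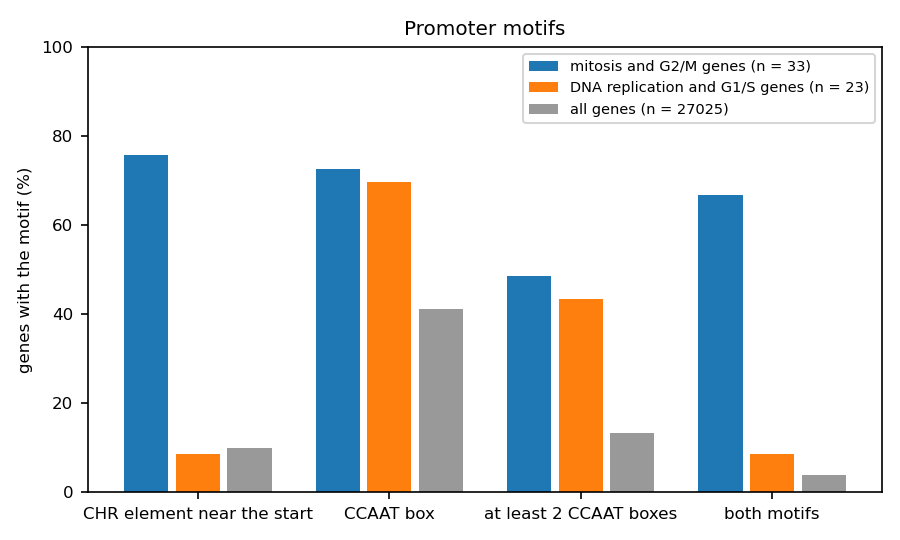
Bars give the percentage of genes whose promoter holds the motif named on the horizontal axis, for the 33 mitosis and G2/M genes, the 23 replication and G1/S genes and all 27025 genes with a promoter. The CHR element is in 75.8% of the mitosis genes and 8.7% of the replication genes, whereas the CCAAT box is in 72.7% and 69.6%.

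The 9 kinases, cyclins and their regulators all rose with genipin and all rose with NAC, with medians of 0.62 and 0.63. Of all genes tested, 29.9% rose with genipin and 29.6% with NAC, and with both compounds 28.5% rose and 28.9% fell. With genipin the range ran from Cdc25b (0.43), a phosphatase that activates Cdk1, to Plk1 (1.00), the Polo-like kinase of mitotic entry and spindle assembly. With NAC it ran from Ccnb1 (0.48), a cyclin B, to Cdc25c (1.16), another activating phosphatase. Cdk1 itself rose by 0.51 and 0.48, and Foxm1, the transcription factor of the G2 programme, by 0.72 and 0.59. With both compounds Cdc25b rose (0.21), while Ccnb1 (-0.37), Cdk1 (-0.18), Plk1 (-0.16) and Aurka (-0.14) fell. Ccna2 (cyclin A), Ccnb2, Foxm1 and Cdc25c were not called at -0.01, -0.03, -0.02 and 0.17. The B cyclins thus differed in call under the combination: Ccnb1 passed the test and Ccnb2 did not. Plk1 had the most negative interaction of the 40 genes (-1.96 ± 0.06 SE, adjusted p = 2.73e-16 by edgeR).

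The phosphatases leaned to NAC and Plk1 to genipin. Against genipin, NAC gave higher levels of Cdc25b (0.49), Cdc25c (0.49) and Aurka (0.12), and lower levels of Plk1 (-0.18), Ccnb1 (-0.14), Foxm1 (-0.12) and Ccna2 (-0.10). The smaller of these calls depended on the setting. Those of Foxm1 and Ccna2 were lost without normalization factors (adjusted p = 0.0972 and 0.293) and with length offsets (0.132 and 0.0623), that of Ccna2 also with a mean of at least 5 CPM (0.0824) and without genipin replicate 1 (0.0787) or NAC replicate 1 (0.0588). That of Aurka was lost with no filter (0.0584) and without genipin replicate 3 (0.0569) or NAC replicate 3 (0.0525), all by edgeR. Cdc25c, taken as an example after its values were seen, had 9.55, 9.14 and 10.2 CPM with vehicle, 15.1, 15.4 and 15.4 under genipin, 10.7, 10.9 and 10.8 with both, and 21.9, 21.8 and 21.1 with NAC. Its NAC libraries were above all others, and those of both compounds lay just above vehicle with no overlap. It had the lowest level per length of the 40 genes, a mean of 9.88 TPM over the 12 libraries.

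Mki67 and Top2a act on the mitotic chromosome: Ki-67 coats its surface, and topoisomerase II alpha untangles sister DNA. Mki67 (chr7:135689784-135716361, minus strand, mm10) had 323, 315 and 315 CPM with vehicle, 765, 741 and 735 under genipin, 346, 309 and 304 with both, and 459, 458 and 456 with NAC. The genipin libraries were far above the rest, NAC lay between, and the combination overlapped vehicle. Its log2 change with genipin was the largest of the 40 genes, 1.23 ± 0.04 SE (adjusted p = 5.25e-17, edgeR), against 0.53 ± 0.04 with NAC (adjusted p = 8.06e-11). NAC against genipin was -0.71 (adjusted p = 1.73e-13). Top2a (chr11:98992943-99024189, minus strand) had the highest level per length of the 40, a mean of 188 TPM. It had 425, 415 and 411 CPM with vehicle, 658, 647 and 633 under genipin, 443, 388 and 379 with both, and 662, 683 and 666 with NAC. Here the groups of the single compounds were alike in level: NAC against genipin gave 0.05 ± 0.04 SE and was not called (adjusted p = 0.242, edgeR). Replicate 1 of genipin with NAC was the highest of its group for both genes.

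**Figure D4:**
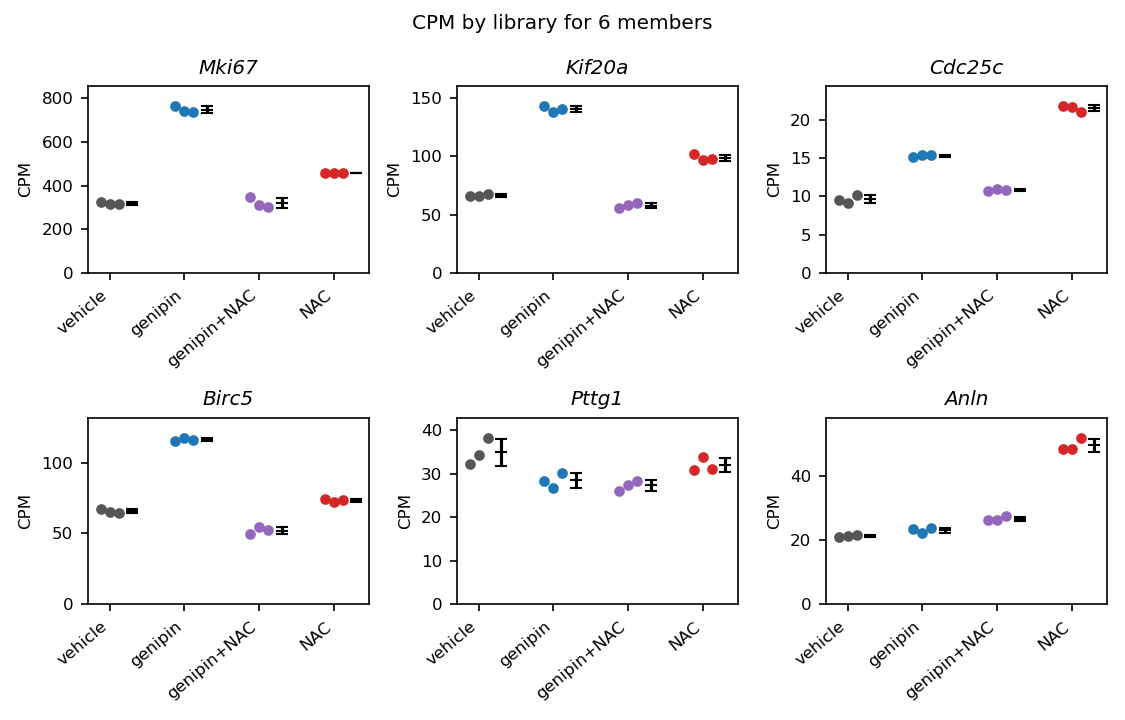
Points give CPM in each library for 6 genes by group, and the black marks the mean and SD of 3 libraries. Mki67, Kif20a and Birc5 are highest with genipin, Cdc25c and Anln with NAC, and Pttg1 is highest with vehicle.

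The chromosomal passenger complex corrects wrong attachments and then guides cytokinesis. It includes the kinase Aurora B (Aurkb), the scaffold Incenp and survivin (Birc5), and the transcripts of these 3 subunits did not change in step. With genipin Birc5 rose by 0.82, Incenp by 0.65 and Aurkb by 0.36, whereas with NAC the order was Aurkb (0.58), Incenp (0.53) and Birc5 (0.16). All 3 fell with both compounds, Birc5 by 0.34, Aurkb by 0.17 and Incenp by 0.11, the last not called without replicate 2 of genipin with NAC (adjusted p = 0.0975, edgeR). Of all genes tested, 28.9% fell with both. Birc5, chosen after its values were seen, had 67.6, 65.5 and 64.3 CPM with vehicle, 115, 118 and 116 under genipin, 49.8, 54.2 and 52.2 with both, and 74.6, 72.4 and 73.6 with NAC. The 4 groups did not overlap, with NAC only a little above vehicle and the combination the lowest. Aurkb (chr11:69045647-69051664, plus strand) had 65.4, 69.2 and 66.9 CPM with vehicle, 87.8, 83.9 and 87.3 under genipin, 56.4, 64.4 and 58.3 with both, and 101, 99.9 and 99.5 with NAC. Its groups did not overlap either, and NAC was highest. NAC against genipin was 0.21 for Aurkb, -0.12 for Incenp and -0.66 for Birc5, all called by edgeR (adjusted p from 0.00344 for Incenp to 5e-13 for Birc5), though Incenp was not called without normalization factors (0.0922).

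All 9 kinetochore and checkpoint genes rose with genipin (median 0.74) and with NAC (median 0.66), where 29.9% and 29.6% of all genes rose. With both compounds they divided into 3 that rose, 3 that fell and 3 not called, which is close to the shares over all genes (28.5% higher and 28.9% lower). The rises with both were in Cenpa (0.40), the histone H3 variant that marks the centromere, Bub1 (0.23), a checkpoint kinase, and Cenpf (0.21), a protein of the outer kinetochore. Without replicate 1 of genipin with NAC the changes of Bub1 and Cenpf were 0.16 and 0.14, still called, and that of Cenpa 0.43. The falls were in Nuf2 (-0.31), Mad2l1 (-0.22), the checkpoint protein Mad2, and Bub1b (-0.13), its partner BubR1. Ndc80 and Nuf2 are subunits that pair in the Ndc80 complex, the main microtubule grip of the kinetochore. They rose alike with genipin (0.75 and 0.74), while with NAC Ndc80 rose by 0.51 and Nuf2 by 0.27.

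Cenpa had the largest rise with both compounds and Cenpe the change closest to 0. Cenpa (chr5:30666777-30674830, plus strand) had 88.9, 94.9 and 89.8 CPM with vehicle, 136, 141 and 138 under genipin, 115, 122 and 124 with both, and 152, 147 and 152 with NAC. The combination lay above vehicle and below each single compound, with no overlap, and its change of 0.40 ± 0.04 SE (adjusted p = 4.63e-09, edgeR) was the largest rise of the 40 genes there. Cenpe (chr3:135212537-135273611, plus strand), a kinesin that carries chromosomes to the spindle equator, had 73.6, 71.6 and 70.4 CPM with vehicle, 140.25, 141 and 138 under genipin, 81.7, 68.3 and 67.1 with both, and 114, 124 and 119 with NAC. Replicate 1 of the combination was above vehicle and replicates 2 and 3 below it, and the change of 0.01 ± 0.05 SE was the smallest of the 40 (adjusted p = 0.925, edgeR). Of the smallest rises with the single compounds in this role, Mad2l1 had 0.34 with genipin and 0.27 with NAC.

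The 8 kinesins, motor proteins that slide, hold or shorten microtubules, all rose with genipin (median 0.78) and with NAC (median 0.63), and 7 of 8 were not called with both compounds. Of all genes tested, 29.9% rose with genipin and 29.6% with NAC, and 57.4% were called with both. The exception was Kif20a, a kinesin of the central spindle needed for cytokinesis, which fell by 0.20 ± 0.04 SE (adjusted p = 0.000107, edgeR). It had 65.8, 65.9 and 67.8 CPM with vehicle, 143, 138 and 141 under genipin, 55.4, 58.0 and 59.7 with both, and 102, 97.1 and 97.3 with NAC. No groups overlapped, and genipin was the highest. Its log2 change was 1.08 with genipin and 0.57 with NAC, and its interaction of -1.85 was, after that of Plk1, the most negative of the 40. Kif22 and Kif4, which bind chromosome arms, rose by 0.90 and 0.96 with genipin and by 0.53 and 0.57 with NAC. Kif18b, which shortens astral microtubules, went the other way, with 0.54 and 0.90. Against genipin, NAC was lower for Kif20a (-0.51), Kif4 (-0.39) and Kif22 (-0.38) and higher for Kif18b (0.36), and was not called for Kif11 (-0.01), Kif23 (0.05), Kif2c (-0.07) and Kif20b (0.10). Kif20a overlaps Cdc23 by 2327 bases and Kif4 overlaps Pdzd11 by 832 bases, both on the opposite strand. Members of other roles also overlap expressed genes on the opposite strand. Among them are Ccna2 with Exosc9 (863 bases), Cdc20 with Elovl1 (53), Nusap1 with Oip5 (172) and Prc1 with Rccd1 (21810). The kit marks strand, but the strand setting of the counting is not given in the sources used here.

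The 5 spindle assembly and cytokinesis genes leaned to NAC: all 5 rose with it (median 0.79), and 4 rose with genipin (median 0.53). Of all genes tested, 29.6% rose with NAC and 29.9% with genipin. Against genipin, NAC was higher for Anln (1.10), Ect2 (0.33), which acts at the division plane, Prc1 (0.28), which bundles central spindle microtubules, and Nusap1 (0.20). Anln (chr9:22332012-22389188, minus strand) encodes anillin, a scaffold of the contractile ring. It had 20.8, 21.2 and 21.4 CPM with vehicle, 23.3, 22.2 and 23.7 under genipin, 26.2, 26.2 and 27.3 with both, and 48.3, 48.4 and 51.8 with NAC. NAC was thus far above the other groups, which lay in small steps, vehicle lowest, then genipin, then the combination, without overlap. The NAC change of 1.23 ± 0.05 SE (adjusted p = 3.9e-14) was the largest of the 40, the genipin change of 0.13 ± 0.06 was not called (adjusted p = 0.0593), and both compounds gave 0.33 ± 0.06 (3.6e-05), all by edgeR. The genipin change was called at 0.19 without normalization factors (adjusted p = 0.00619), at 0.26 with offsets for effective length (0.018) and at 0.15 without genipin replicate 2 (0.0466). Anln was the only member of the 40 that was higher with both compounds than with genipin alone (0.20, adjusted p = 0.00297, edgeR), and with length offsets this became -0.04 and was not called.

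Tpx2 (chr2:152847964-152895321, plus strand), which activates Aurora A on the spindle, was the spindle gene that did not differ in call between the single compounds. It had 102, 98.4 and 96.4 CPM with vehicle, 147, 146 and 147 under genipin, 92.8, 91.1 and 93.3 with both, and 145, 149 and 155 with NAC. The genipin and NAC libraries overlapped, and NAC against genipin gave 0.03 ± 0.03 SE (adjusted p = 0.392, edgeR). With both compounds it fell by 0.10 ± 0.03 SE (adjusted p = 0.0196, edgeR), a call that was also lost with a mean of at least 5 CPM (0.0703) and without vehicle replicate 1 (0.108) or replicate 2 of genipin with NAC (0.0671).

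Among the 4 anaphase genes, Cdc20, Ube2c and Espl1 rose with each compound, and Pttg1 did not. A rise with each compound was called for 8.73% of all genes. Cdc20, the activator of the anaphase promoting complex, rose by 0.48 with genipin and 0.81 with NAC and fell by 0.17 with both. Ube2c (chr2:164769898-164778822, plus strand), its ubiquitin-conjugating enzyme, had 77.1, 79.9 and 80.7 CPM with vehicle, 102, 103 and 101 under genipin, 83.3, 82.8 and 87.6 with both, and 139, 139 and 135 with NAC. NAC was highest and the combination just above vehicle, with changes of 0.36, 0.80 and 0.10 for genipin, NAC and both, each called. The call with both was lost with DESeq2 (adjusted p = 0.0561), and in edgeR with no filter (0.103), with only the groups compared (0.0582), and without vehicle replicate 1 (0.115) or replicate 3 of genipin with NAC (0.139). Cdc20 and Ube2c were also higher with NAC than with genipin (0.33 and 0.43).

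Espl1 and Pttg1 encode separase and securin, the protease that opens cohesin and the inhibitor bound to it. Espl1 (chr15:102296266-102324357, plus strand) had 62.9, 62.9 and 58.8 CPM with vehicle, 101, 99.9 and 100.03 under genipin, 46.2, 51.1 and 50.1 with both, and 96.3, 94.0 and 89.4 with NAC. The single compounds were well above vehicle and the combination wholly below it. Its changes were 0.71 ± 0.04 SE with genipin (adjusted p = 4.6e-12), 0.60 ± 0.04 with NAC (9.14e-11) and -0.32 ± 0.04 with both (2.34e-06), by edgeR. NAC against genipin was -0.11 (adjusted p = 0.021), the only anaphase gene lower with NAC, and with length offsets it was 0.14. This call was lost without normalization factors (adjusted p = 0.232), with a mean of at least 5 CPM (0.0793) and without genipin replicate 1 (0.0618) or NAC replicate 3 (0.129), and the fall with both compounds was not called with length offsets (-0.32, adjusted p = 0.25), all by edgeR. Pttg1 (chr11:43420250-43426251, minus strand) had 32.1, 34.1 and 38.3 CPM with vehicle, 28.3, 26.7 and 30.2 under genipin, 26.05, 27.4 and 28.4 with both, and 30.8, 33.8 and 31.1 with NAC. The genipin and combination libraries were all below vehicle, and NAC overlapped it.

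Pttg1 fell with genipin (-0.29 ± 0.07 SE, adjusted p = 0.000739) and with both compounds (-0.35 ± 0.07, 0.000133), and NAC gave -0.13 ± 0.07 (0.104, not called), by edgeR. It was the only gene of the 40 that fell with genipin. Its interaction of 0.07 ± 0.10 SE was the only one not called (adjusted p = 0.57). Without vehicle replicate 1 the NAC change was called at -0.18 (adjusted p = 0.0352), and without NAC replicate 2 the fall with both compounds against NAC was not called (-0.18, adjusted p = 0.0577). TPM are adjusted for length and, unlike the CPM, carry no normalization factors. On that scale the order of vehicle and NAC was the other way, with means of 73.1 ± 5.4 and 78.2 ± 3.91 (SD, n = 3). With genipin, the transcript of separase thus rose while that of securin fell. The difference between the 2 genes was not tested.

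**Figure D5:**
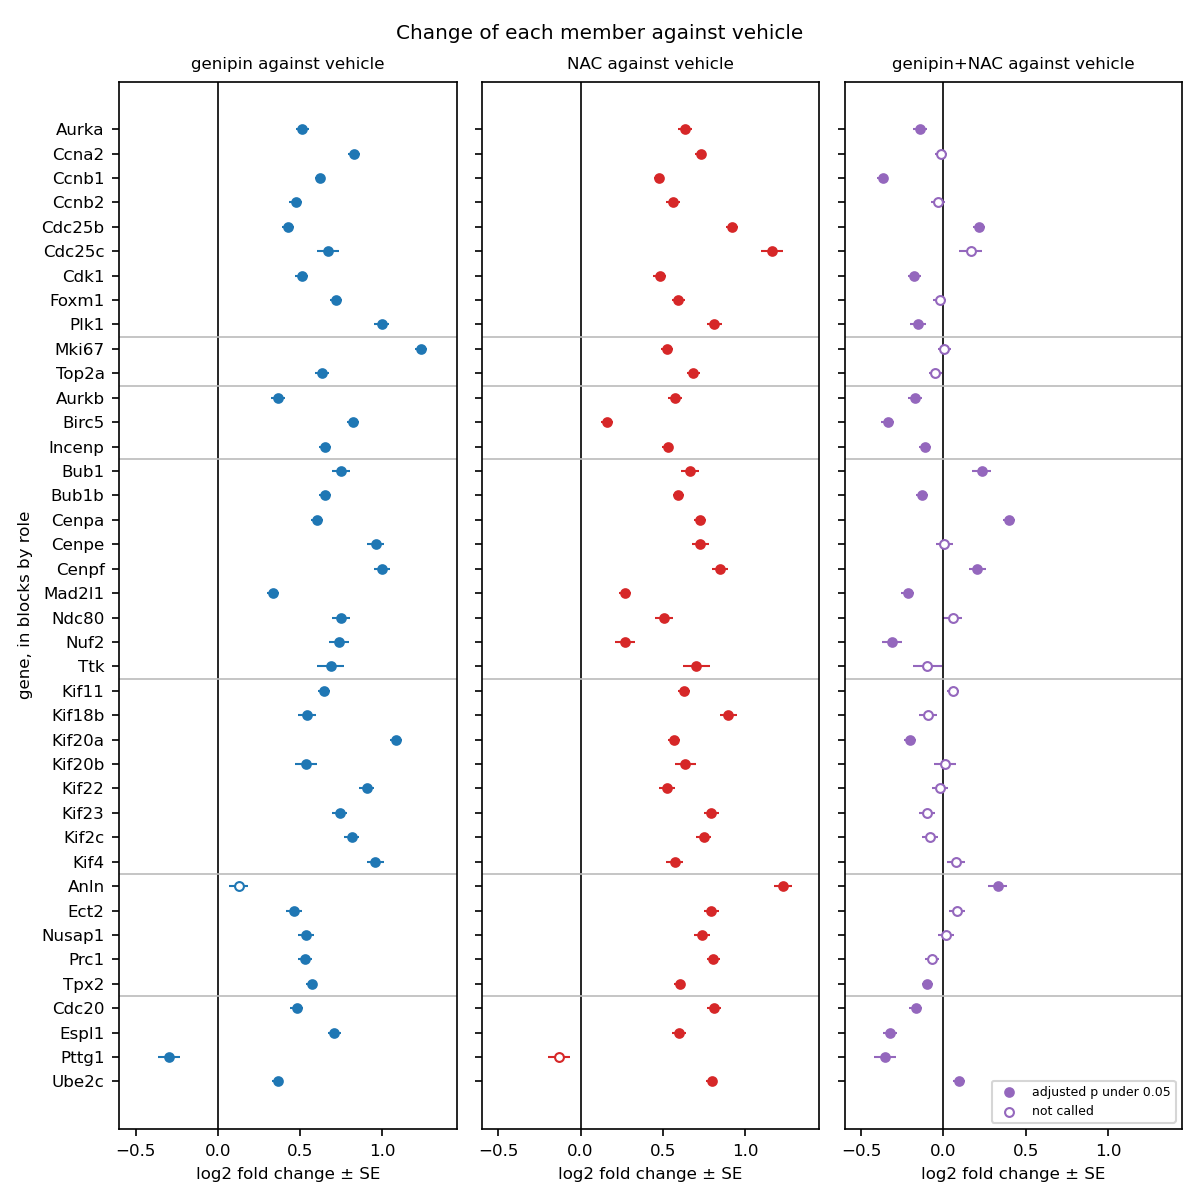
Points give the log2 fold change of each of the 40 genes against vehicle with its SE, for genipin, NAC and both compounds, filled where the adjusted p was under 0.05. With a single compound every point but those of Pttg1 lies to the right of 0, with both compounds the points run from -0.37 to 0.40, and the open points are Anln with genipin, Pttg1 with NAC and 19 genes with both.

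Between the single compounds the 40 genes had no common direction. NAC against genipin gave 13 higher, 15 lower and 12 not called, with a median of -0.02, where 71.8% of all genes were called, 36.6% higher and 35.2% lower. Without normalization factors the split was 18 higher and 10 lower, and without replicate 1 of genipin with NAC, which enters that comparison only through the shared fit, 16 higher and 15 lower. Of the calls, 4 reached a log2 change of 0.5: Anln at 1.10 on the side of NAC, and Mki67 (-0.71), Birc5 (-0.66) and Kif20a (-0.51) on the side of genipin. Over all genes tested the SD of this log2 change was 1.13. Across the 40 genes the change with genipin had a Spearman rank correlation of 0.426 with effective transcript length, against 0.193 over all genes tested, and the change with NAC 0.196 against 0.212. These are descriptions across genes measured in the same libraries, from 515 bases for Pttg1 to 9789 for Mki67.

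Of a further 123 genes of mitosis, 95 rose and 5 fell with genipin, 83 rose and 14 fell with NAC, and 19 rose and 48 fell with both. Of all genes tested, 29.9% rose and 31.0% fell with genipin, 29.6% and 30.0% with NAC, and 28.5% and 28.9% with both. The medians of the 123 genes were 0.38, 0.30 and -0.09. Of these genes 104 had an interaction below 0 and 3 above, against 24.0% and 27.4% of all genes. All 22 further spindle and cytokinesis genes rose with genipin and 20 rose with NAC. Of 8 condensin subunits, which compact chromosomes, 7 rose with each. Of 19 subunits and regulators of the anaphase promoting complex, 10 rose and 2 fell with genipin, and 8 rose and 7 fell with NAC, the last pair near those shares of all genes. The largest changes with genipin were in Fbxo5 (1.17), the inhibitor of that complex, E2f8 (1.15), a repressor of the E2F family, Knl1 (1.07), the kinetochore platform of Bub1, and Depdc1a (1.04). With NAC they were in Pbk (1.19), a mitotic kinase, Sgo2a (1.00), a guardian of centromeric cohesin, Hjurp (0.89), the chaperone that loads Cenpa, and Aspm (0.88), a spindle pole protein.

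With both compounds the largest changes of these further genes were in Mad1l1 (-0.75), the kinetochore anchor of Mad2, Tfdp1 (-0.61), the partner of E2F factors, Hjurp (0.58) and Mybl2 (-0.52), which encodes B-Myb. Hjurp and its client Cenpa were both above vehicle with the combination, and Mad1l1 and its partner Mad2l1 were both below it. The paired subunits Nuf2 (-0.31) and Ndc80 (0.06, not called) did not move alike there. Pairs of partners were not compared as a set. The list of Hjurp and Mad1l1 held 32 inner centromere and kinetochore genes. With both compounds 4 of them rose and 12 fell, against 28.5% and 28.9% of all genes. Hjurp had 101, 104 and 101 CPM with vehicle and 151, 155 and 153 with both compounds. Mad1l1 had 17.4, 18.2 and 15.97 with vehicle and 9.77, 11.02 and 9.84 with both. Neither gene overlapped between these groups.

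The replication and G1/S genes, which are transcribed before mitosis in the cycle, had a larger median with genipin than with NAC. Of 30 such genes, 27 rose and 1 fell with genipin (median 0.48), 16 rose and 5 fell with NAC (median 0.14), and 1 rose and 27 fell with both compounds (median -0.33). The shares of all genes were 29.9% higher and 31.0% lower with genipin, 29.6% and 30.0% with NAC, and 28.5% and 28.9% with both. All 30 had an interaction below 0, with a median of -0.89, where 24.0% of all genes were called below 0. Their summed TPM had means of 1555 ± 2.77 in vehicle libraries, 2351 ± 22.7 under genipin, 1314 ± 24.8 under both and 1895 ± 1.11 under NAC (SD, n = 3). The 40 mitosis genes summed to 1555 ± 26.7, 2568 ± 20.3, 1558 ± 31.8 and 2681 ± 42.2. The abundant genes weigh most in these sums, and the TPM carry no normalization factors. In the sums the mitosis genes were close to the vehicle level with both compounds and a little higher with NAC than with genipin. Their median log2 change was 0.65 with genipin and 0.63 with NAC. Without normalization factors the median for NAC against genipin was 0.03 in place of -0.02. The sum of the replication genes was below vehicle with both compounds and highest with genipin. The difference between the lists was not tested.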

How the data were processed

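Per the labels, total RNA was made into libraries with a stranded kit and removal of ribosomal RNA and read as 2 ends of 150 bases. The submitters' processing notes name bcl2fastq, cutadapt 1.18, STAR 2.7.0f, RSEM 1.3.1 and mm10, with no role for each. Each library has 1 deposited table of genes whose columns, per the file headers, are transcript lengths and effective lengths in bases, expected counts, TPM and FPKM. Expected counts deposited by the authors were rounded for the tests, TPM deposited by the authors served for levels per length, and the deposited FPKM were not used. Every gene ID matched GENCODE mouse release 21, which gave the coordinates.

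Groups came from the labels. In edgeR 4.0.16 (R 4.3.3), filterByExpr left 13636 genes, TMM factors ran from 0.961 to 1.05, and a model with a mean for each group took in the 12 libraries (common biological coefficient of variation 0.0393, 8 residual degrees of freedom). CPM were computed from counts and TMM-scaled totals. The quasi-likelihood F test gave p for each contrast, adjusted by Benjamini-Hochberg over all genes tested, and genes were called at an adjusted p under 0.05. SE was taken as the size of the log2 fold change over the root of F.

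The 40 genes, the other lists, the contrasts and the naming rule were chosen with earlier results of these data known. By that rule, per-library values were given for the gene with the highest mean TPM, those with the largest and smallest change against vehicle, and those whose call or direction differed from most of their role. Up to 4 of the 123 further genes were named per contrast by size, at a mean of at least 5 CPM, and a part of them is described. Alternatives were RLE factors, no factors, DESeq2 1.42.0, limma-voom (limma 3.58.1), no filter, a mean of at least 5 CPM, only the groups compared, an adjusted p under 0.01, glmTreat against a 1.5-fold change, effective length offsets, the replicate block and leaving out each library. The steps were tested on simulated data. A few marker genes of other cells are not reported here. Promoters came from RefSeq GRCm38.p6, and 33 of 35 entries continued into a GENCODE transcript of the same gene in the same direction. Plots used matplotlib 3.10.9 and Python 3.11.15.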

Additional observations from a re-analysis of the deposited data

Results flagged for a closer look

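The effect of genipin differed between cells with and without NAC for 39 of the 40 genes, by edgeR's quasi-likelihood test of the interaction with Benjamini-Hochberg adjustment (adjusted p from 2.2e-17 to 5.78e-10). Pttg1 was the exception. Without NAC, 38 of these genes were higher with genipin. In the presence of NAC all 39 were lower with it. The interaction was -1.96 for Plk1, -1.66 for Cdc25c, -1.57 for Ccna2, -1.47 for Ccnb1, -1.33 for Foxm1, -1.29 for Aurka, -1.17 for Cdk1, -1.13 for Cdc25b and -1.06 for Ccnb2. On the mitotic chromosome it was -1.75 for Mki67 and -1.36 for Top2a. In the passenger complex Birc5 had -1.32, Incenp -1.29 and Aurkb -1.11. Among kinetochore and checkpoint genes Cenpe had -1.68, Cenpf -1.64, Ttk -1.49, Bub1b -1.37, Nuf2 -1.32, Ndc80 -1.20, Bub1 -1.18, Cenpa -0.92 and Mad2l1 -0.82. Among the kinesins it was -1.85 for Kif20a, -1.65 for Kif2c, -1.63 for Kif23, -1.53 for Kif18b, -1.45 for both Kif22 and Kif4, -1.21 for Kif11 and -1.16 for Kif20b. Prc1 had -1.40, Tpx2 -1.27, Nusap1 -1.25, Ect2 -1.17 and Anln -1.02. In anaphase the values were -1.63 for Espl1, -1.46 for Cdc20 and -1.07 for Ube2c. The most negative values were thus those of Plk1, Kif20a and Mki67, and Mad2l1 and Cenpa were the only called genes above -1.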

How the results depend on the processing

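Of single-gene calls recomputed under the alternatives, 5508 kept their direction and side of the threshold, 171 lost the call, 4 gained it and 4 changed sign. The reversals were Anln for both compounds against genipin (-0.0426) and Espl1 for NAC against genipin (0.14) with effective length offsets, and the interaction of Pttg1, not called in any case, without normalization factors (-0.0742) and without vehicle replicate 3 (-0.0078). In the order genipin, NAC and both against vehicle, both against genipin, both against NAC, and NAC against genipin, glmTreat against a 1.5-fold change called 16, 17, 0, 22, 23 and 3 genes. The shares of all genes that glmTreat called were not computed, so these counts have no background to be read against. Without normalization factors the medians were 0.71, 0.75 and -0.0167 against vehicle, -0.79 for both against NAC, 0.0339 for NAC against genipin and -1.47 for the interaction, as the median of all genes moved by up to 0.12 (NAC against vehicle). With a mean of at least 5 CPM the median for both against genipin was -0.65. The cause was not tested.

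Leaving out each library in turn gave 39 to 40 called genes for genipin, 39 to 40 for NAC and 19 to 24 for both against vehicle, 39 in each fit for both against genipin, 39 to 40 for both against NAC, 25 to 31 for NAC against genipin and 39 for the interaction. The medians ran from 0.63 to 0.66, 0.62 to 0.66, -0.09 to -0.03, -0.71 to -0.66, -0.71 to -0.69, -0.03 to 0.00 and -1.35 to -1.32 in the same order. Libraries with the same replicate number showed no pairing: deviations from group means correlated between -0.15 and 0.12 over 18 pairs, and the own number gave the best match for 3 of 12 libraries. With the replicate number as a block the counts were 39, 39, 21, 39, 40, 29 and 39. With 3 libraries per group of unknown independence, small changes such as those with both compounds rest on the spread between these libraries. Doses, timing and cell cycle phase were not measured or labelled, so levels per cell are not known.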
